A study of Homo sapiens with 9 samples.

Results

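Low and high levels of APT1, an enzyme that takes palmitate off proteins and is encoded by LYPLA1, were compared directly in 6 of the 9 RNA libraries of the series, 3 from shAPT1 cells and 3 from APT1wt cells. All came from MDA-MB-231, an established human breast cancer line that lacks the hormone receptors and ERBB2 amplification. The shAPT1 cells carried a stable lentiviral short hairpin RNA against APT1 and had been selected with puromycin, and the APT1wt cells carried a lentivirus for stable overexpression of wild-type APT1. The 3 control libraries, from cells with a lentiviral scramble RNA, served to place a value between or outside both groups. Libraries were grouped by these labels and by no measured value. The libraries to compare, the gene lists and the rule for naming genes were chosen with earlier results of these data known. All cells grew in DMEM with 10% serum, and each group carried a different lentivirus, so the level of APT1 cannot be told apart from the hairpin, the overexpression vector and the selection. The labels do not say whether a line was 1 clone or a pool, nor whether replicates were grown apart, so p-values reflect the spread among the libraries at hand, part of which may be technical.

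Palmitoylation attaches a fatty acid to cysteines of a protein and holds that protein at a membrane. ZDHHC enzymes add the palmitate, and thioesterases such as APT1 and its paralog APT2 remove it, so that a protein can cycle between membranes. The study asked how APT1 bears on the unequal inheritance of Notch and Wnt regulators by daughter cells, in which NUMB (a Notch inhibitor), CTNNB1 (beta-catenin) and CDC42 (a polarity GTPase) take part.

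Depth was 12381931 to 18667383 estimated reads per library. Levels are given in TPM, a transcript's share of its library after correction for transcript length. Differences are log2 fold changes ± SE of shAPT1 minus APT1wt from edgeR's quasi-likelihood test on estimated reads, so a positive value is higher in shAPT1. A gene is said to differ, or to pass, where its p adjusted over all genes tested was under 0.05. The first principal component of log2 CPM (counts scaled by depth; 31.9% of variance) ran from 29.3 to 36.5 in shAPT1, from -7.45 to -4.89 in control and from -29.8 to -23.2 in APT1wt. The second (27.5%) set the control libraries, at -34.3 to -29.1, apart from both lines, at 8.63 to 24.0. The third (9.94%) set shAPT1 replicate 1, at -30.7, apart from replicates 2 and 3, at 14.8 and 20.1, and results that rest on that library are given below with and without it.

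**Figure D1:**
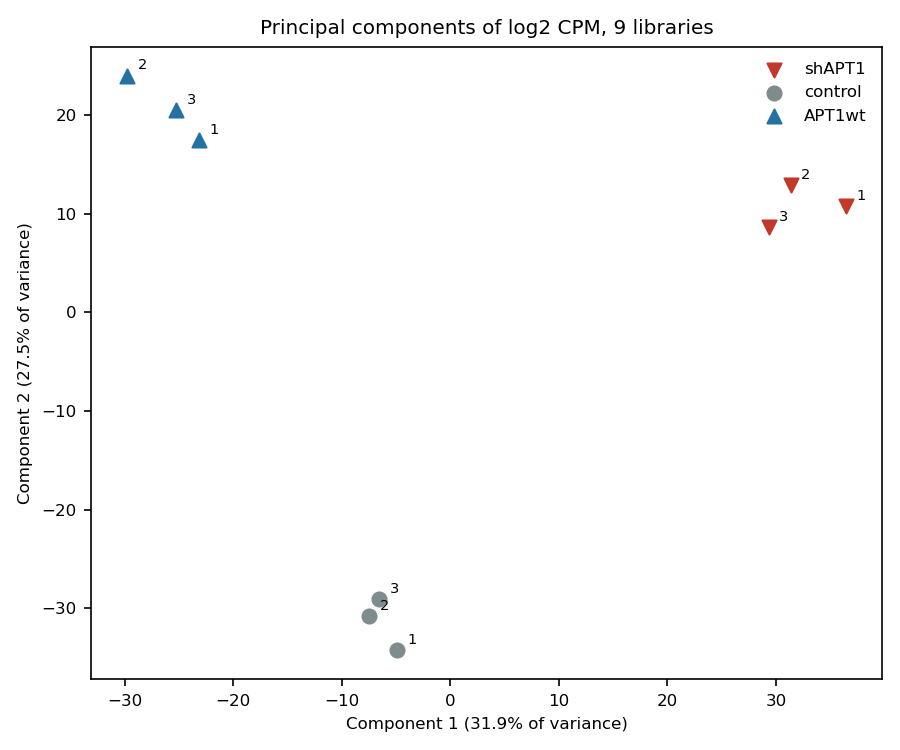
The first 2 principal components of log2 CPM (counts scaled by depth) over the tested genes, 1 point per library with its replicate number (component 1 on the x axis, component 2 on the y axis, arbitrary units). Component 1 separates shAPT1 (29.3 to 36.5) from APT1wt (-29.8 to -23.2) with the control libraries between them, and component 2 separates control from both lines.

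LYPLA1, identifier ENSG00000120992.17, lies on the minus strand of chromosome 8 from 54046367 to 54102017 (GRCh38). It separated the lines as their labels say. In shAPT1 LYPLA1 was measured at 38.2 TPM in replicate 1, 30.5 in replicate 2 and 36.7 in replicate 3. In APT1wt the corresponding levels were 169 TPM, 171 TPM and 170 TPM, and the control libraries lay between them at 80.5 to 92.7 TPM. Of the gene's level, 63.5 to 68.1 TPM in APT1wt and 9.045 to 17.3 in control were assigned to LYPLA1-010, a transcript not annotated as coding. The coding transcript LYPLA1-001 was at 7.475 to 13.3 TPM in shAPT1, 26.7 to 36.2 in control and 41.8 to 47.6 in APT1wt. On estimated reads LYPLA1 was 3.7-fold lower in shAPT1 than in APT1wt (-1.89 ± 0.07, adjusted p = 5.0e-10), and with the mean transcript length of each library as an offset the difference was -2.36. LYPLA2, which encodes APT2, stood at 35.4 to 38.6 TPM in shAPT1 and 36.9 to 45.7 TPM in APT1wt, with overlapping groups (-0.21 ± 0.09, adjusted p = 0.10), and LYPLA2 passed under 1 alternative, without shAPT1 replicate 3 (-0.27, adjusted p = 0.048). Over its alternatives the adjusted p ran from 0.048 to 0.32.

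Of 31 tested genes that add or remove palmitate, 3 were higher in shAPT1 and 3 lower, with a median of 0.10 beside 0.0012 over all tested genes. Among all 15233 tested genes, 25.1% differed, 12.7% higher and 12.4% lower. The counts for each list below are to be read beside these shares. By library totals alone 8 of the palmitate genes were higher and 3 lower, without shAPT1 replicate 1 5 were higher, and without shAPT1 replicate 3 5 were lower. After removal of the median difference of neighbouring genes 5 were higher and 1 lower. Besides LYPLA1, the palmitoyltransferase genes ZDHHC20 (-0.51 ± 0.08), ZDHHC9 (0.43 ± 0.06) and ZDHHC21 (0.51 ± 0.12) passed. ZDHHC20 lies on chromosome 13 and ZDHHC9 on X, and neither passed after that removal. ZDHHC21 did not pass with the transcript length offset, and its TPM overlapped between the lines, at 2.33 to 3.20 in shAPT1 and 1.40 to 3.07 in APT1wt.

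In all, 3829 genes differed, 1941 higher and 1888 lower in shAPT1. The difference was at least 2-fold for 573 of them (3.76% of the tested genes), 373 higher and 200 lower, and at least 4-fold for 115 higher and 41 lower. Scaling by library totals alone changed the balance to 2628 higher and 1327 lower and moved the median of all genes to 0.06. Of the genes named below, each that lost its call with the length offset lost it with the deposited scaled table too, VCAN excepted. The 3 shAPT1 and 3 APT1wt libraries did not overlap for 5973 genes (39.2%), 3045 higher and 2928 lower.

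Control lay between the means of both lines for 2179 of the 3829 genes (56.9%), above both for 781 (20.4%) and below both for 869 (22.7%). Among the 11404 genes that did not pass, control lay between for 25.4%. With all 9 libraries required to keep their order, control lay between for 514 genes, below both lines for 385 and above both for 276, and 2654 could not be placed. The placement uses the libraries that made the calls and is a description.

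Genes lower in shAPT1 were led by CSF3, which encodes the granulocyte growth factor G-CSF. The shAPT1 libraries held 5.64, 1.39 and 1.66 TPM of CSF3 and the APT1wt libraries 70.0, 69.0 and 67.2 TPM, with control at 32.7 to 38.5 TPM. The difference was -4.83 ± 0.27 (28.5-fold lower, adjusted p = 2.5e-08), and -5.77 without shAPT1 replicate 1, the highest of its group. C3, the central complement component, followed the same order, with 59.2, 24.7 and 22.5 TPM in shAPT1, 222, 217 and 221 TPM in APT1wt and 68.6 to 76.7 TPM in control (-2.54 ± 0.21). KCNN3, a calcium-activated potassium channel gene, was at 0.0582 to 0.161 TPM in shAPT1 and 4.06 to 4.78 TPM in APT1wt (-4.51 ± 0.27, or -5.26 with the length offset).

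ENG, which encodes the TGF-beta co-receptor endoglin, was at 1.63, 2.56 and 3.35 TPM in shAPT1, against 18.0, 20.3 and 18.8 TPM in APT1wt (-3.95 ± 0.17, or -3.0 with the length offset). In TPM its control libraries, at 1.79 to 4.30, overlapped the shAPT1 range, so the line with high APT1 was the one that stood apart. The same held for IGFN1, with 1.88 to 2.71 TPM in shAPT1, 2.06 to 2.96 in control and 19.7 to 36.1 in APT1wt (-3.69 ± 0.17). The fetal growth factor gene IGF2 was at 0.774 to 0.911 TPM in shAPT1, 0.449 to 0.910 in control and 3.98 to 6.90 in APT1wt (-3.22 ± 0.24). OLFML3, which encodes a secreted olfactomedin-domain protein, was at 0.358 to 0.645 TPM in shAPT1 and 3.66 to 4.99 in APT1wt (-3.11 ± 0.27). ASB2, a ubiquitin ligase adaptor gene, had the opposite placement: control at 7.73 to 9.53 TPM overlapped APT1wt at 7.91 to 9.06, and shAPT1 was at 1.21 to 1.47 (-2.66 ± 0.13).

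Of the remaining leaders, CTSW, which encodes a cathepsin, was lower by -2.48 ± 0.20 and the morphogen gene SHH by -2.35 ± 0.31, both with control between. FAM65C was at 5.26 to 9.84 TPM in shAPT1 and 30.1 to 39.9 in APT1wt (-2.29 ± 0.15), and control was below both at 3.00 to 3.66. ALDH3A1, an aldehyde dehydrogenase gene, rested on 4 estimated reads in shAPT1 and 30 in APT1wt. It was lower by -2.80 ± 0.77 (adjusted p = 0.016), a call lost without APT1wt replicate 1 (-2.03, adjusted p = 0.097), and the difference was -3.96 without shAPT1 replicate 2.

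Genes higher in shAPT1 were led by genes close to silence in APT1wt, so the reads summed over each group are given. TSPAN8, a tetraspanin gene, had 53 estimated reads over the shAPT1 libraries and was listed at 0 in all 3 APT1wt libraries. Against a floor of 3 reads over the group, that is at least 18.2-fold higher in shAPT1. WNT5A, a ligand of non-canonical Wnt signalling, had 228 reads in shAPT1 and 3 in APT1wt, a ratio of 78.4 with a 95% counting interval of 26.5 to 383. In TPM, WNT5A stood at 1.43, 1.25 and 1.02 in shAPT1, at 0.0138, 0 and 0.0677 in APT1wt and at 0.077 to 0.0924 in control. KBTBD8, a ubiquitin ligase adaptor gene, had 180 reads against 1 (ratio 186, interval 32.9 to 7370), and DAPK1, a death-associated kinase gene, 367 against 3 (ratio 126, interval 42.8 to 615). ATP10A, a lipid flippase gene, had 287 reads against 3 (ratio 98.7, interval 33.4 to 481), and NAP1L3 142 against 3 (ratio 48.8, interval 16.4 to 240). These intervals cover counting error only.

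More reads stood behind the phosphodiesterase gene PDE1C, at 5.61, 8.03 and 7.38 TPM in shAPT1, against 0.201, 0.0133 and 0.0183 TPM in APT1wt (6.53 ± 0.34, adjusted p = 1.3e-08), from 1084 group reads against 11. Its control libraries were between, at 0.429 to 0.745 TPM. The zinc finger gene ZNF521 was at 4.12 to 5.56 TPM in shAPT1 and 0.0284 to 0.0803 in APT1wt (6.01 ± 0.28, 615 reads against 9), with control between at 0.244 to 1.32. NRK, a kinase gene, was at 2.22 to 2.70 TPM in shAPT1 and 0.030 to 0.0768 in APT1wt (6.50 ± 0.31, 584 reads against 6). CHRDL1, which encodes a BMP antagonist, was at 3.31 to 4.89 TPM in shAPT1 and 0.0783 to 0.214 in APT1wt (4.93 ± 0.29, 351 reads against 11). The muscarinic receptor gene CHRM3 was at 2.06 to 3.62 TPM in shAPT1 and 0.00894 to 0.0541 in APT1wt (5.40 ± 0.41, 280 reads against 6). AMPH, which encodes amphiphysin, was at 2.62 to 2.94 TPM in shAPT1 and 0.104 to 0.468 in APT1wt (5.36 ± 0.36, 224 reads against 5).

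For these near-silent genes the size of the difference moved with the setting while every call held. The length offset gave 4.71 for DAPK1 beside 6.72, 4.09 for AMPH and 6.35 for CHRM3. The deposited scaled table gave 3.51 for DAPK1, 3.27 for AMPH, 5.58 for NRK, 5.31 for WNT5A and 6.07 for CHRM3, and limma-voom gave 5.11 for TSPAN8 and 6.35 for KBTBD8. Without APT1wt replicate 1, KBTBD8 was at 8.81, PDE1C at 7.69 and AMPH at 5.97. Without APT1wt replicate 2, CHRM3 was at 6.47, and without APT1wt replicate 3, DAPK1 was at 7.46, WNT5A at 6.82 and NAP1L3 at 8.45.

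**Figure D2:**
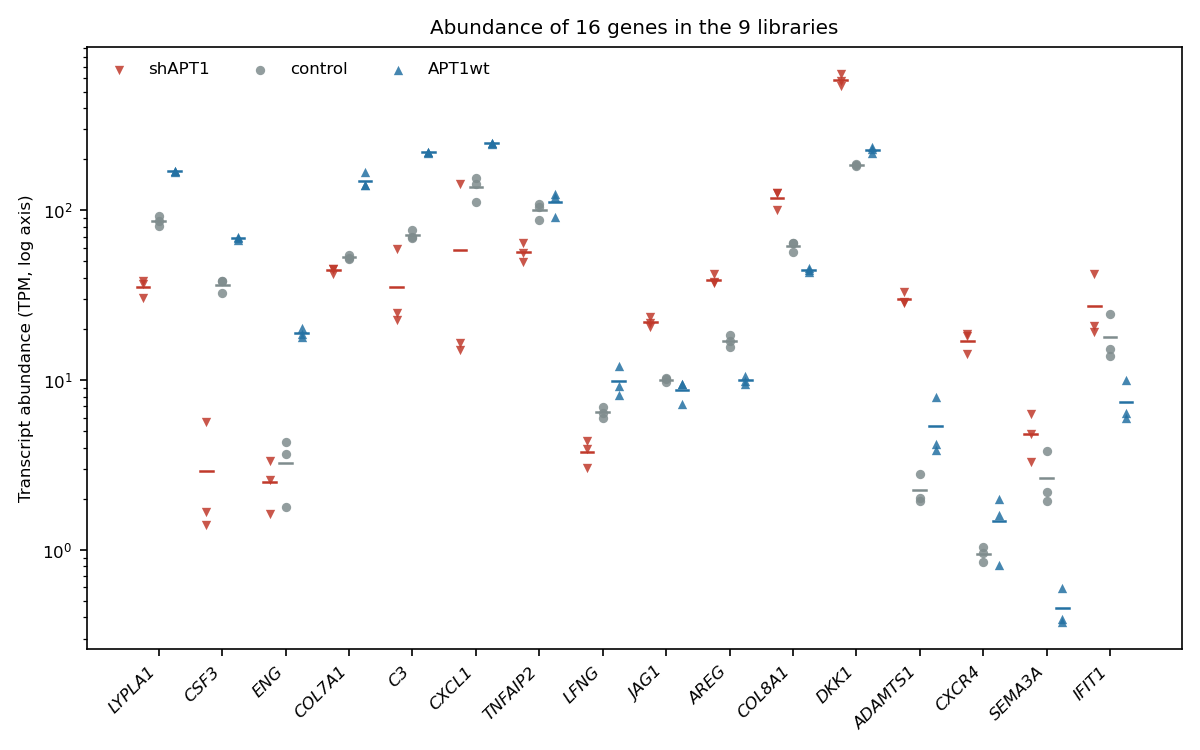
Transcript abundance in TPM (log axis) of 16 genes in each of the 9 libraries, with a short line at the mean of each group of 3. LYPLA1, CSF3, C3 and COL7A1 run upward from shAPT1 through control to APT1wt, AREG and COL8A1 run downward, and CXCR4 and ADAMTS1 are high in shAPT1 (14.3 to 18.7 and 28.4 to 32.8 TPM) with the other 2 groups low.

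Genes with both lines on 1 side of all control libraries, in counts scaled for depth, included ADAMTS1, a secreted metalloprotease gene, at 28.4, 28.8 and 32.8 TPM in shAPT1, 7.91, 4.20 and 3.87 TPM in APT1wt and 1.94 to 2.81 TPM in control (2.65 ± 0.12). LYPD6B was at 13.8 to 17.5 TPM in shAPT1, 2.22 to 3.66 in APT1wt and 0.126 to 1.13 in control (2.73 ± 0.21). OLR1, a receptor for oxidised lipoprotein, was at 9.18, 3.76 and 2.75 TPM in shAPT1 and 0.409 to 0.967 in APT1wt (3.29 ± 0.44). The OLR1 difference was 2.67 without shAPT1 replicate 1 and 3.89 without APT1wt replicate 3. PLXDC2 (3.97 ± 0.34, or 4.95 with the length offset) and CNKSR2 (2.31 ± 0.32) were placed likewise, but in TPM their APT1wt and control ranges overlapped.

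In the other direction, TALDO1, which encodes transaldolase of the pentose phosphate pathway, was at 88.8, 119 and 125 TPM in shAPT1, 291, 283 and 312 TPM in APT1wt and 305 to 316 TPM in control (-1.57 ± 0.10), so that in TPM APT1wt overlapped control. STOM, which encodes the membrane protein stomatin, was at 11.1 to 14.2 TPM in shAPT1, 3.64 to 4.32 in APT1wt and 14.8 to 19.0 in control (1.54 ± 0.12). The carboxypeptidase gene CPVL (1.93 ± 0.16) and the inflammasome gene NLRP2 (1.83 ± 0.24) were also higher in shAPT1 than in APT1wt, and lay below control in counts scaled for depth, but in TPM their shAPT1 and control ranges overlapped.

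Notch pathway components differed in both directions: of 34 tested, 5 were higher and 7 lower in shAPT1, with a median of -0.04. The ligand gene JAG1 was at 20.6, 23.7 and 21.6 TPM in shAPT1, against 7.22, 9.46 and 9.48 TPM in APT1wt, with control at 9.72 to 10.2 (1.27 ± 0.08, adjusted p = 1.4e-07). LFNG, a glycosyltransferase gene that modifies Notch receptors, had the opposite order, at 3.04 to 4.36 TPM in shAPT1, 6.01 to 6.97 in control and 8.14 to 12.2 in APT1wt (-1.50 ± 0.15). The receptor gene NOTCH1 was at 11.5 to 13.5 TPM in shAPT1 and 15.7 to 17.0 in APT1wt, both below control at 18.2 to 21.5 (-0.45 ± 0.07, adjusted p = 5.8e-04). NEURL1B, a ubiquitin ligase gene for Notch ligands, was lower by -0.73 ± 0.18. NUMB stood at 53.9, 57.1 and 54.8 TPM in shAPT1, against 57.6, 51.0 and 55.1 TPM in APT1wt, overlapping, and both lines were above control at 46.1 to 48.6 (-0.07 ± 0.06, adjusted p = 0.43).

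Of 18 tested Notch targets 2 were higher and 5 lower, with a median of -0.08. NRARP, a feedback inhibitor of Notch, was at 1.84 to 2.02 TPM in shAPT1, 2.47 to 2.90 in control and 3.11 to 5.60 in APT1wt (-1.22 ± 0.22). SOX9, a transcription factor gene, was higher by 0.37 ± 0.09. CDKN1A, the p21 gene, was lower by -0.43 ± 0.13 (adjusted p = 0.028). Its libraries overlapped, and the call was lost by library totals alone, after removal of the neighbours' median, with only the 6 libraries compared, without APT1wt replicate 1 or 2 and without shAPT1 replicate 2 or 3. The number of lower targets was 2 without APT1wt replicate 2 and 3 by library totals alone, after that removal or without APT1wt replicate 1, APT1wt replicate 3 or shAPT1 replicate 2.

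Wnt ligands, receptors and transducers likewise went both ways, with 8 of 41 higher and 12 lower in shAPT1 (median -0.05), or 8 and 8 by library totals alone, 5 and 7 with the length offset or the deposited table, and 6 and 7 without shAPT1 replicate 2. Ligand genes differed in opposite directions: WNT5A was higher as given above, while WNT10A was at 0.726 to 0.889 TPM in shAPT1 and 2.22 to 3.60 in APT1wt (-1.73 ± 0.25). The receptor gene FZD8 was at 1.09 to 1.55 TPM in shAPT1, 0.672 to 0.774 in control and 0.316 to 0.630 in APT1wt (1.47 ± 0.26). DKK1, a secreted Wnt antagonist, was at 633, 581 and 537 TPM in shAPT1, against 230, 237 and 218 TPM in APT1wt, and control was below both at 182 to 188 (1.29 ± 0.06, adjusted p = 5.8e-09). CTNNB1 was at 155, 137 and 145 TPM in shAPT1, against 160, 167 and 161 TPM in APT1wt (-0.24 ± 0.06, adjusted p = 0.0063).

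Of 21 tested Wnt/beta-catenin targets 5 were higher and 8 lower, with a median of -0.22, or 3 and 7 with the length offset or the deposited table, and 5 were lower without APT1wt replicate 3. PTGS2, the inducible cyclooxygenase gene, had 92 reads in shAPT1 and 8 in APT1wt (3.49 ± 0.48). RNF43, a ubiquitin ligase gene for Frizzled receptors, was higher by 1.12 ± 0.20, a call lost with the length offset. NRCAM, a cell adhesion gene, was lower by -0.76 ± 0.21, with TPM that overlapped (0.468 to 1.24 in shAPT1, 0.867 to 2.79 in APT1wt). Its call was lost with the length offset and without APT1wt replicate 1, APT1wt replicate 3 or shAPT1 replicate 2.

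Among 35 genes of cell polarity and asymmetric division, 4 were higher and 8 lower in shAPT1 (median -0.02), or 5 and 5 with the length offset or the deposited table. Without APT1wt replicate 2, 5 were lower, and without shAPT1 replicate 1, 7 were higher. The scaffold gene DLG1 was at 135, 132 and 122 TPM in shAPT1, 86.3, 87.7 and 81.1 TPM in APT1wt and 91.6 to 110 TPM in control (0.55 ± 0.07), and MPP5, which encodes the Crumbs partner PALS1, was higher by 0.45 ± 0.08. MSI2, an RNA-binding protein gene of the Musashi family, was higher by 4.05 ± 0.18 on reads, 815 against 48. With the length offset it was higher by 2.15 (adjusted p = 0.0050), and in TPM it stood at 6.05, 6.57 and 10.8 in shAPT1, 1.31, 2.71 and 1.38 in APT1wt and 1.65 to 5.57 in control. CELSR1, a planar polarity cadherin gene on chromosome 22, was lower by -0.64 ± 0.16, a call lost after removal of the neighbours' median. CDC42 was at 275, 211 and 215 TPM in shAPT1, against 241, 253 and 244 TPM in APT1wt (-0.18 ± 0.06, adjusted p = 0.055), and passed with DESeq2 (-0.18), with limma-voom (-0.18) and without shAPT1 replicate 1 (-0.24).

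**Figure D3:**
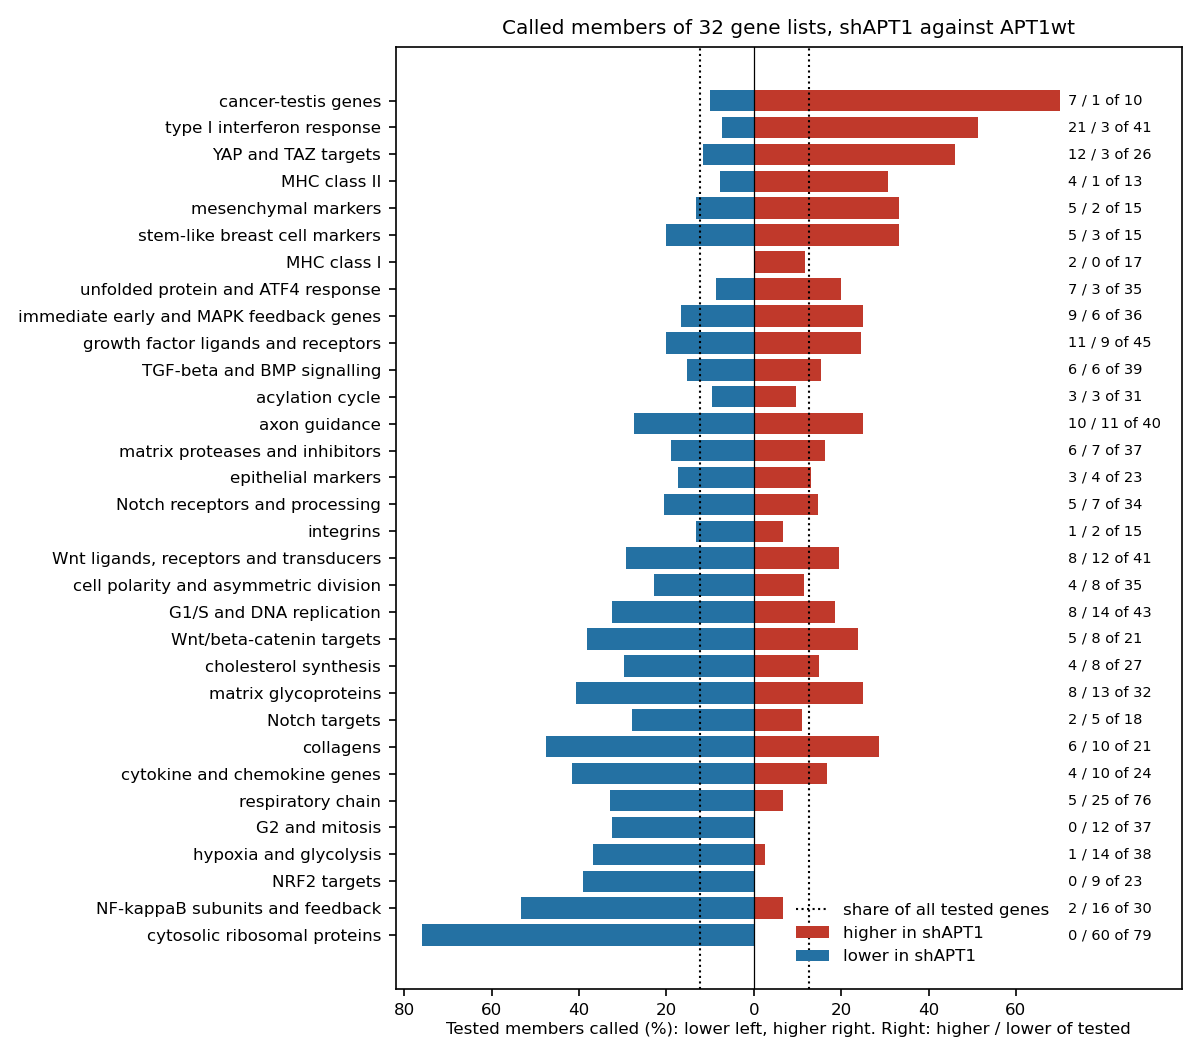
Percent of tested members that were higher (right) or lower (left) in shAPT1 than in APT1wt for 32 gene lists, with the counts at the right edge. Dotted lines mark the shares over all tested genes, 12.7% higher and 12.4% lower. Ribosomal protein genes (60 of 79 lower) and cancer-testis genes (7 of 10 higher) lie at the 2 ends. Only 10 of 43 cancer-testis genes cleared the filter on low counts.

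Genes of inflammatory signalling came out lower in shAPT1 in more cases than higher. Of 24 tested cytokine and chemokine genes 10 were lower and 4 higher (median -0.49), and of 30 genes for NF-kappaB, its regulators and feedback targets 16 were lower and 2 higher (median -0.33). With the length offset or the deposited table, 8 cytokine genes were lower and 2 higher and 12 NF-kappaB genes were lower and 1 higher, and without APT1wt replicate 2 or 3, 2 cytokine genes were higher. With DESeq2, 7 cytokine genes were lower and 3 higher. CXCL1, a neutrophil chemokine, had 143 TPM in shAPT1 replicate 1 beside 16.6 and 15.03 in replicates 2 and 3, against 250, 250 and 245 TPM in APT1wt and 111 to 156 TPM in control. The groups did not overlap, and the difference was -2.27 ± 0.54, -3.15 with limma-voom and -4.06 without shAPT1 replicate 1. DESeq2 gave no result for CXCL1. IL1B, a pyrogenic cytokine gene, was at 5.53, 1.45 and 2.04 TPM in shAPT1, 11.2, 10.9 and 12.5 TPM in APT1wt and 6.97 to 8.53 TPM in control (-2.05 ± 0.29, or -2.75 without that library). CSF2, which encodes GM-CSF, was at 28.2, 12.2 and 8.84 TPM in shAPT1, against 32.4, 64.3 and 66.6 TPM in APT1wt (-1.86 ± 0.33).

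ZC3H12A, an RNase that degrades cytokine mRNAs, was at 9.92, 2.96 and 2.88 TPM in shAPT1, against 21.2, 24.1 and 22.5 TPM in APT1wt, with control next to APT1wt at 20.3 to 20.6 (-2.27 ± 0.27, or -2.93 without shAPT1 replicate 1). The kinase gene IKBKE was at 17.6, 12.6 and 15.6 TPM in shAPT1 and 34.9 to 39.2 in APT1wt (-1.35 ± 0.09), and TNFAIP2 at 49.9 to 64.6 and 90.8 to 125 TPM (-1.17 ± 0.09). PTGS2, also in this list, was the exception with the largest difference in the other direction.

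IL6 and CXCL8 did not pass and their groups overlapped. IL6 stood at 46.8 TPM in shAPT1 replicate 1, 9.97 in replicate 2 and 10.7 in replicate 3, beside 25.7 to 32.6 in APT1wt (-0.57 ± 0.38, adjusted p = 0.31). CXCL8, the interleukin-8 gene, stood at 138 TPM in shAPT1 replicate 1, 22.6 in replicate 2 and 22.8 in replicate 3, beside 109 to 113 in APT1wt (-0.94 ± 0.47, adjusted p = 0.16). Without replicate 1 both were lower, by -1.57 (adjusted p = 7.6e-07) and -2.35 (adjusted p = 1.7e-10). With all libraries CXCL8 passed with limma-voom (-1.56, adjusted p = 0.016). Both also passed with no filter on low counts, a fit that gave a gene's own spread no weight. Over the other alternatives, adjusted p ran from 7.6e-07 to 0.73 for IL6 and from 1.7e-10 to 0.44 for CXCL8. Over the lists, shAPT1 replicate 1 exceeded the mean of replicates 2 and 3 by a median of 0.60 for cytokines and 0.32 for NF-kappaB genes (log2), and without it 14 cytokine genes were lower and 4 higher, and 18 NF-kappaB genes were lower and 1 higher. The part of that library in the other results was not tested beyond its removal.

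The promoter of CXCL1 is shown because more of its list was lower than higher and because it holds the letters of an NF-kappaB-type site. The 250 bases before the start (RefSeq, GRCh38.p14, chr4:73869143-73869392, plus strand) are given 5′ to 3′, with the match to GGANTTTCC in capitals, at -78 to -70 from the start.
CXCL1: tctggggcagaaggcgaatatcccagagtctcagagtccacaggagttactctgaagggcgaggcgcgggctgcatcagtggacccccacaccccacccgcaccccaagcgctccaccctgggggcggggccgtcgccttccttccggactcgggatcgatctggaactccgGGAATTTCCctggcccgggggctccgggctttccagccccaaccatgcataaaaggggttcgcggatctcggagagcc
On either strand, GGANTTTCC occurred in 6 of the 17 cytokine genes found in the promoter table (35.3%), in 10 of 26 NF-kappaB genes (38.5%) and in 1.79% of all 27305 genes there. Among the members that passed, it occurred in 3 of 10 cytokine genes (30.0%) and 5 of 15 NF-kappaB genes (33.3%). Genes were matched to the promoter table by symbol, which found 17 of 24 tested cytokine genes, 26 of 30 NF-kappaB genes and 30 of the 41 interferon genes described below. The windows of IL1B and CSF2 held no match. The RefSeq start used for CSF2 was not found in an annotated transcript of the gene, unlike those of CXCL1 and IL1B. The shares count a match before any start site of a gene, while each window described here lies before a single start. These are matches of letters within this window and not measured binding.

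Of 41 tested genes of the type I interferon response, 21 were higher in shAPT1 and 3 lower, with a median of 0.55. IFIT1, which encodes a sensor of foreign RNA caps, was at 42.0, 19.2 and 20.7 TPM in shAPT1, 9.97, 5.94 and 6.36 TPM in APT1wt and 13.9 to 24.4 TPM in control (1.71 ± 0.30, adjusted p = 8.2e-04). IFIT2 of the same family was at 28.8, 13.6 and 13.1 TPM in shAPT1, 3.56 to 5.33 in APT1wt and 10.6 to 14.0 in control (1.88 ± 0.25). In TPM, control overlapped shAPT1 for both genes, and APT1wt was the group that stood apart. IFI44 was at 32.8, 20.3 and 19.6 TPM in shAPT1, 6.34 to 11.5 in APT1wt and 26.9 to 29.9 in control (1.54 ± 0.20), and OASL at 7.65, 3.01 and 3.85, 1.06 to 1.94 and 3.48 to 4.35 TPM (1.55 ± 0.31). Replicate 1 was again the highest shAPT1 library for these 4 genes, by a list median of 0.27 over replicates 2 and 3. Without it 18 interferon genes were higher and 4 lower, and without APT1wt replicate 2, 18 and 1. The length offset and the deposited table each gave 16 higher and 2 lower, and DESeq2 17 and 2. Without APT1wt replicate 3, 16 were higher and 3 lower.

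The promoters of IFIT1 and IFI44 are shown because more of their list was higher than lower, with matches to GAAANNGAA, part of the core of an interferon-stimulated response element, in capitals (here as the reverse complement). They are 250 bases before the RefSeq start on GRCh38.p14, chr10:89392373-89392622 and chr1:78649539-78649788, both on the plus strand. The matches lie at -115 to -107 and -102 to -94 in IFIT1 and at -17 to -9 in IFI44. The RefSeq start of IFIT1 was found in an annotated transcript of the gene, but that of IFI44 was not. The IFI44 position therefore holds for that RefSeq start only.
IFIT1: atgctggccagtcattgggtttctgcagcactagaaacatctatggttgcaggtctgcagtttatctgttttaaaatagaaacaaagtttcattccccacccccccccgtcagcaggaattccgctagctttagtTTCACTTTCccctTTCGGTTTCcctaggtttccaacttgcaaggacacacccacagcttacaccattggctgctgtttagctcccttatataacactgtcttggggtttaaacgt
IFI44: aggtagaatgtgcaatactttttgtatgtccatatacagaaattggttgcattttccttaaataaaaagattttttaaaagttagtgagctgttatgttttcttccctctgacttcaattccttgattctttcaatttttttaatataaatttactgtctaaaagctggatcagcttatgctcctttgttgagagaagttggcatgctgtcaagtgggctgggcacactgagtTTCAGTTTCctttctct
GAAANNGAA occurred on either strand in 23 of the 30 interferon genes in the table (76.7%), in 4 of 17 cytokine genes (23.5%) and in 8.41% of all genes. Among the 18 of these interferon genes that passed, it occurred in 12 (66.7%). Here too a match before any start site of a gene was counted. A link between these letters and the difference was not tested.

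**Figure D4:**
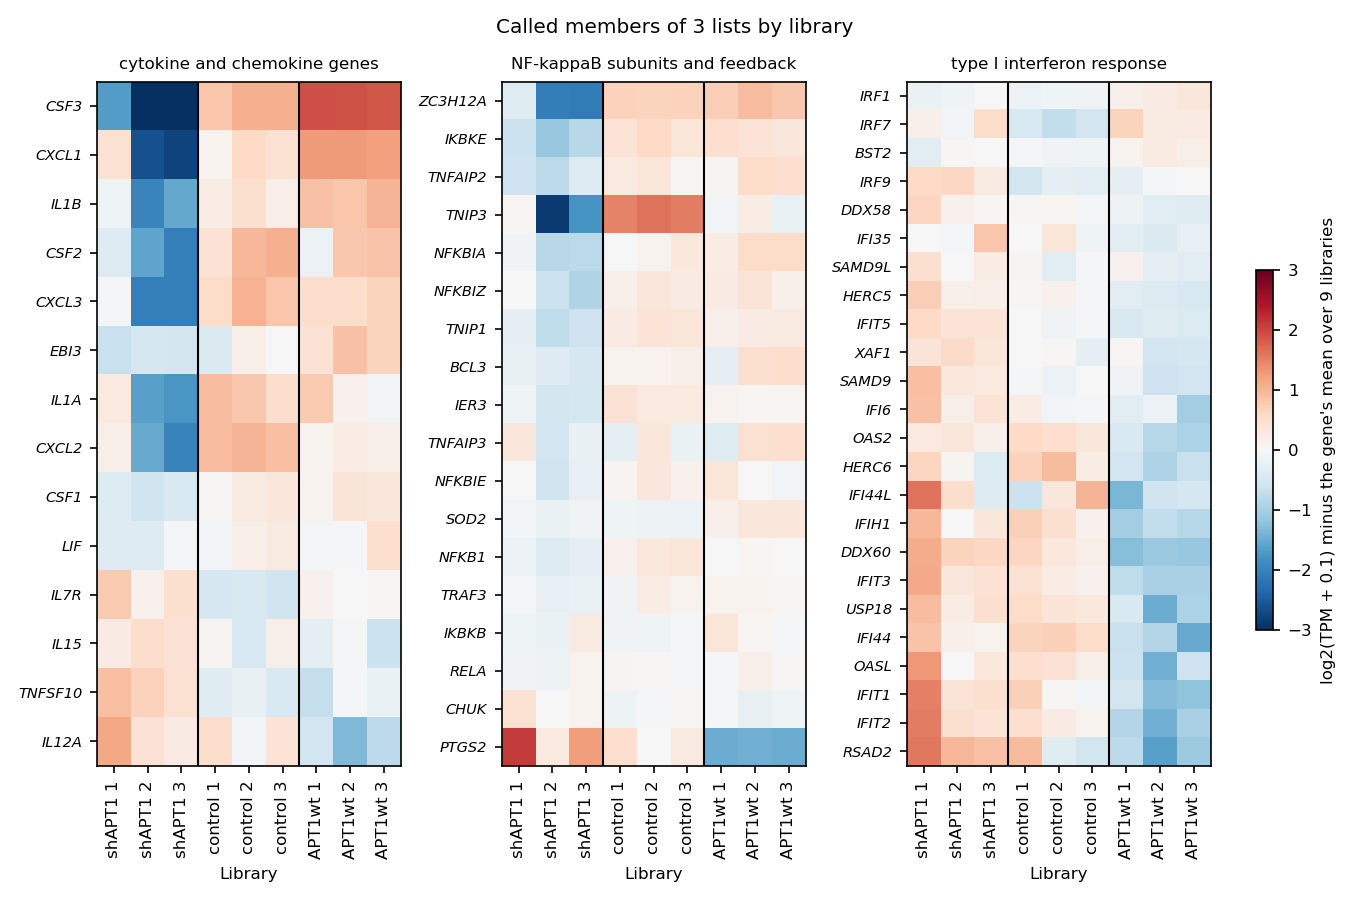
Level of each member that passed in 3 lists (rows) in each of the 9 libraries (columns), as log2(TPM + 0.1) minus the mean of that gene over the 9 libraries, on a colour scale cut at -3 and 3. Most cytokine and NF-kappaB genes are lowest in shAPT1 replicates 2 and 3 and less low in replicate 1, and most interferon genes are lowest in the APT1wt libraries.

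Of 13 MHC class II genes, which present antigen, 4 were higher and 1 lower (median 0.10), or 2 and 1 with the deposited table and 3 and 2 without APT1wt replicate 1, and all 5 lay below control in both lines by group means. HLA-DPB1 was at 6.39 to 8.62 TPM in shAPT1, 3.05 to 4.52 in APT1wt and 15.04 to 17.5 in control (0.76 ± 0.18), HLA-DPA1 was higher by 0.50 ± 0.12 and HLA-DMA by 0.51 ± 0.14. Their master regulator gene CIITA went the other way, at 3.40 to 3.70 TPM in shAPT1 and 4.96 to 7.88 in APT1wt (-0.81 ± 0.12). HLA-DPA1 did not pass with the length offset, nor HLA-DMA without APT1wt replicate 2 or 3 or shAPT1 replicate 1. Of 17 class I genes 2 were higher, the peptide transporter genes TAP1 (0.30 ± 0.07) and TAP2 (0.27 ± 0.07). That is 11.8% of them, below the 25.1% of all tested genes.

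Genes of the extracellular matrix differed in both directions. Of 21 collagen genes 6 were higher and 10 lower in shAPT1 (median -0.35), and of 32 matrix glycoprotein genes 8 were higher and 13 lower (median -0.05). With the length offset 5 and 6 collagen genes and 4 and 11 glycoprotein genes were higher and lower, and the deposited table gave 5 and 6, and 5 and 11. COL7A1, the collagen of anchoring fibrils, was at 42.2, 45.3 and 45.4 TPM in shAPT1, 141, 168 and 141 TPM in APT1wt and 51.6 to 54.7 TPM in control (-1.85 ± 0.06, adjusted p = 5.0e-10). COL8A1, a short-chain collagen of vessel walls, had the reverse order, at 100, 127 and 127 TPM in shAPT1, 56.6 to 64.5 in control and 43.3 to 45.8 in APT1wt (1.49 ± 0.10). The fibrillar chain gene COL1A2 was higher by 2.28 ± 0.36 from 132 against 26 reads, and COL9A2 by 0.95 ± 0.26, a call lost with DESeq2 and without APT1wt replicate 1.

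The paralogous fibulin genes EFEMP1 and EFEMP2 moved apart. EFEMP1 was at 58.8, 63.5 and 63.3 TPM in shAPT1, against 16.3, 21.1 and 22.7 TPM in APT1wt (1.55 ± 0.12), while EFEMP2 was at 8.76, 8.54 and 12.3 TPM in shAPT1, against 36.0, 31.2 and 33.5 TPM in APT1wt (-2.07 ± 0.12). Thrombospondin 2 (THBS2) was higher by 3.39 ± 0.21, or 2.74 with the length offset, and the proteoglycan gene VCAN by 1.68 ± 0.29, a call lost with that offset. Of 37 matrix proteases and inhibitors 6 were higher and 7 lower (median 0.06), or 7 and 6 by library totals alone, and 3 were higher without APT1wt replicate 3. MMP9, a gelatinase gene, was at 0.743 to 1.12 TPM in shAPT1 and 3.16 to 4.51 in APT1wt (-2.10 ± 0.25). ADAM8 was lower by -1.0 ± 0.11 and ADAMTS15 higher by 0.85 ± 0.14. Of 15 integrin genes, ITGA2 was higher (0.53 ± 0.09) and ITGB4 (-0.71 ± 0.17) and ITGAV (-0.31 ± 0.09) lower. ITGAV did not pass with the length offset or without APT1wt replicate 2 or 3 or shAPT1 replicate 2 or 3.

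Of 26 targets of the YAP and TAZ coactivators 12 were higher and 3 lower in shAPT1 (median 0.17), or 13 and 1 by library totals alone and 9 and 1 without APT1wt replicate 2 or shAPT1 replicate 2, and 8 were higher without APT1wt replicate 3. The matrix protein gene THBS1 was at 1101, 1010 and 1009 TPM in shAPT1, 557, 596 and 545 TPM in APT1wt and 304 to 463 TPM in control (0.81 ± 0.09). IGFBP3, an insulin-like growth factor binding protein gene, was at 53.1 to 60.1 TPM in shAPT1, 29.2 to 38.9 in control and 20.4 to 24.7 in APT1wt (1.21 ± 0.10). ANKRD1 (0.78 ± 0.12) and CRIM1 (0.67 ± 0.05) were also higher. Summed over the list, the level was 4903 to 5224 TPM in shAPT1, 3477 to 3777 in APT1wt and 3209 to 3468 in control.

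Of 15 mesenchymal markers 5 were higher and 2 lower in shAPT1 (median 0.19), or 4 and 1 with DESeq2, the length offset or the deposited table, and 3 were higher after removal of the neighbours' median and without any 1 of the APT1wt libraries or shAPT1 replicate 2. CDH11, a mesenchymal cadherin gene, was at 38.9 to 49.8 TPM in shAPT1, 21.5 to 27.3 in APT1wt and 9.56 to 10.4 in control (0.72 ± 0.08), and TAGLN was higher by 0.42 ± 0.09. SPARC was lower by -1.46 ± 0.33, and the transcription factor gene SNAI1 by -0.84 ± 0.26 with calls lost with DESeq2, with the length offset, without APT1wt replicate 2 or 3 and without shAPT1 replicate 1 or 3. Of 23 epithelial markers 3 were higher and 4 lower (median -0.01), or 5 and 3 by library totals alone, 5 and 4 without shAPT1 replicate 1, 4 and 2 without shAPT1 replicate 2 and 2 and 1 with the length offset, among them the claudin gene CLDN4 (-0.72 ± 0.11). In the main fit 30.4% of the epithelial markers differed, near the 25.1% of all tested genes. CLDN3 (-1.01 ± 0.35), PKP3 (-0.61 ± 0.13) and ESRP2 (-0.53 ± 0.14) were lower too, but did not pass with the length offset. CLDN3 (adjusted p = 0.049) was lost also with DESeq2, by library totals alone, with only the 6 libraries compared and without any 1 of 8 libraries, shAPT1 replicate 3 being the exception, and ESRP2 without shAPT1 replicate 2.

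Of 15 markers of stem-like breast cells 5 were higher and 3 lower (median 0.08), or 3 and 3 with the length offset or the deposited table. CXCR4, the receptor for the chemokine CXCL12, was at 14.3, 18.7 and 18.2 TPM in shAPT1, against 0.809, 2.00 and 1.61 TPM in APT1wt (11.6-fold higher, 3.53 ± 0.21, adjusted p = 5.9e-08). Control, at 0.847 to 1.03 TPM, overlapped APT1wt, so the line with low APT1 stood apart. CD24 was higher by 1.52 ± 0.23 but did not pass with the length offset, and CD44 was lower by -0.51 ± 0.08. High CD44 with low CD24 is the usual mark of these cells, so both moved against the name of the list in shAPT1.

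Growth factor genes went both ways, with 11 of 45 higher and 9 lower (median 0.07). AREG, which encodes the EGF receptor ligand amphiregulin, was at 37.2, 42.3 and 37.8 TPM in shAPT1, 9.93, 10.6 and 9.50 TPM in APT1wt and 15.6 to 18.5 TPM in control (1.90 ± 0.11, adjusted p = 5.8e-08). EGF was higher by 1.32 ± 0.34 (1.93 without APT1wt replicate 1), a call lost with the length offset and without APT1wt replicate 2 or 3. Of 36 immediate early and MAPK feedback genes 9 were higher and 6 lower (median 0.15). EGR1, a growth factor-induced transcription factor gene, was at 4.53 to 4.82 TPM in shAPT1, 1.87 to 2.44 in control and 0.821 to 1.34 in APT1wt (2.01 ± 0.18). SPRY1, a feedback inhibitor of receptor kinases, was higher by 1.12 ± 0.15 and ATF3 by 1.05 ± 0.21. FOS was higher by 1.01 ± 0.35 (adjusted p = 0.048), but was lost with DESeq2, with limma-voom, after removal of the neighbours' median and without any 1 of 7 libraries, control replicates 1 and 2 being the exceptions.

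Of 39 genes of TGF-beta and BMP signalling 6 were higher and 6 lower, with a median of 0.0044. That is 30.8% of them, near the 25.1% of all tested genes. The activin antagonist gene FST was at 36.8 to 47.9 TPM in shAPT1, 22.2 to 29.6 in APT1wt and 11.3 to 14.5 in control (0.76 ± 0.13), and the receptor gene BMPR1B was higher by 1.15 ± 0.21. The co-receptor gene TGFBR3 was lower by -0.94 ± 0.12, and the inhibitor gene SMAD6 by -0.63 ± 0.14, a call lost with the length offset.

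Axon guidance genes, which also act in cell migration, were higher for 10 and lower for 11 of 40 (median -0.10), or 12 and 8 by library totals alone, 9 and 7 with the length offset, 7 and 6 with the deposited table and 10 and 7 without APT1wt replicate 3. Of these 21, 10 differed at least 2-fold. The semaphorin gene SEMA3A was at 6.33, 4.82 and 3.30 TPM in shAPT1, 0.376, 0.390 and 0.596 TPM in APT1wt and 1.94 to 3.82 TPM in control (2.87 ± 0.18). The Slit receptor gene ROBO1 was at 7.54 to 10.8 TPM in shAPT1, 1.48 to 3.04 in control and 0.881 to 1.39 in APT1wt (2.90 ± 0.17). The netrin gene NTN4 (2.21 ± 0.23) and SEMA3D (1.67 ± 0.18) were also higher. For 16 of the 21, control lay between the means of the 2 lines.

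Of 38 hypoxia and glycolysis genes 14 were lower in shAPT1 and 1 higher (median -0.17), or 9 and 5 by library totals alone and 12 and 3 without shAPT1 replicate 1. Without APT1wt replicate 2, 9 were lower and none higher, and without APT1wt replicate 3 or shAPT1 replicate 2, 10 and none. PFKFB4, a regulator of glycolytic flux, was at 10.1, 10.1 and 11.5 TPM in shAPT1, 33.2, 23.4 and 26.7 TPM in APT1wt and 8.50 to 11.5 TPM in control (-1.18 ± 0.12). VEGFA, the angiogenic factor gene, was at 75.5 to 86.0 TPM in shAPT1 and 108 to 114 in APT1wt (-0.63 ± 0.07), and ANGPTL4 was lower by -1.40 ± 0.33. DDIT4 was lower by -0.67 ± 0.22, but was lost with DESeq2, with the length offset, by library totals alone, and without APT1wt replicate 2 or 3 or shAPT1 replicate 1 or 2.

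Of 23 targets of the antioxidant factor NRF2 9 were lower and none higher (median -0.20, and 1 higher by library totals alone, with no filter on low counts or without APT1wt replicate 1). Beside TALDO1, the quinone reductase gene NQO1 was at 255 to 289 TPM in shAPT1 and 349 to 482 in APT1wt (-0.63 ± 0.09), and the exporter gene ABCC3 was lower by -1.14 ± 0.15. The ferritin gene FTL was lower by -0.49 ± 0.14, a call lost with DESeq2 and without APT1wt replicate 1 or shAPT1 replicate 2. Of 27 genes of cholesterol synthesis and its control 8 were lower and 4 higher (median -0.12), but 3 and 2 with the length offset or the deposited table, and 4 were lower without APT1wt replicate 1 and 5 without shAPT1 replicate 2. INSIG1, which restrains that synthesis, was lower (-0.57 ± 0.07). MVD (-0.62 ± 0.11) was lost with the length offset and LSS (-0.43 ± 0.09) after removal of the neighbours' median. Of 35 genes of the unfolded protein and ATF4 responses 7 were higher and 3 lower (median 0.13), or 9 and 1 after removal of the neighbours' median and 12 and 4 with no filter on low counts, and 14 were higher without APT1wt replicate 1 and 4 without APT1wt replicate 2 or 3, with the chaperone gene DNAJB9 (0.79 ± 0.11) and VLDLR (0.86 ± 0.12) among them. SLC6A9 was higher by 0.97 ± 0.28, but not without APT1wt replicate 2 or 3 or shAPT1 replicate 2 or 3.

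Of 79 cytosolic ribosomal protein genes 60 were lower in shAPT1 and none higher, with a median of -0.26, and 43 to 67 were lower, with none higher, under the alternatives listed with the methods other than the test against 1.5-fold. Summed, they made up 126700 to 135600 TPM in shAPT1, 142500 to 143700 in control and 148700 to 152200 in APT1wt, with no overlap. RPLP1, of the ribosomal stalk, was at 582, 665 and 702 TPM in shAPT1, against 833, 852 and 818 TPM in APT1wt (-0.49 ± 0.08), and RPLP2 (-0.47 ± 0.09) and RPS15 (-0.47 ± 0.08) differed as much. RPL21, on chromosome 13, was lower by -0.58 ± 0.09, but both lines lay above control. Reads of ribosomal protein genes can be shared with their many processed pseudogenes, so values of single members are uncertain.

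Of 76 nuclear-encoded respiratory chain genes 25 were lower and 5 higher (median -0.12), or 14 and 7 by library totals alone, 10 and 1 with the length offset, 11 and 1 with the deposited table and 16 and 2 after removal of the neighbours' median. The number of lower genes was 14 without APT1wt replicate 1 and 16 without shAPT1 replicate 2, and the number of higher genes 1 without either of these or APT1wt replicate 2 and 3 without control replicate 2 or 3, with DESeq2, with no filter on low counts or with only the 6 libraries compared. ATP5G1, a subunit gene of ATP synthase, was at 216 to 244 TPM in shAPT1 and 305 to 328 in APT1wt (-0.58 ± 0.06). UQCRC1 (-0.50 ± 0.08), ATP5D (-0.47 ± 0.09) and CYC1 (-0.39 ± 0.07) were also lower. The summed level of the list was 14990 to 15870 TPM in shAPT1 and 15710 to 15880 in APT1wt, with overlap.

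Of 37 genes of G2 and mitosis 12 were lower in shAPT1 and none higher (median -0.15, or 7 lower and 3 higher by library totals alone, 7 lower without shAPT1 replicate 2, and 1 higher without shAPT1 replicate 3). PLK1, a mitotic kinase gene, was at 104, 96.5 and 108 TPM in shAPT1, 139, 152 and 160 TPM in APT1wt and 114 to 130 TPM in control (-0.72 ± 0.07). The cyclin gene CCNB1 (-0.42 ± 0.05), UBE2C (-0.37 ± 0.06) and the checkpoint kinase gene BUB1 (-0.33 ± 0.06) were also lower. Of 43 genes of G1/S and DNA replication 14 were lower and 8 higher (median -0.08), but 6 lower and 12 higher by library totals alone, 9 and 7 with the length offset or with only the 6 libraries compared, 9 and 6 with the deposited table and 6 and 7 without APT1wt replicate 2. Without APT1wt replicate 3, 9 were lower and 4 higher, and without shAPT1 replicate 2, 9 were lower. E2F2 (-0.72 ± 0.12), CDT1 (-0.37 ± 0.08) and TYMS (-0.37 ± 0.06) were lower.

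Of 43 cancer-testis genes, which are normally restricted to germ cells, 10 cleared the filter on low counts and were tested. Among these 7 were higher in shAPT1 and 1 lower (median 0.59). By group means, 6 of those that differed lay below control in both lines. MAGEC1 and SPANXA1 cleared the filter through their shAPT1 reads, so the filter shapes these counts. The summed list stood at 474.8 to 530.3 TPM in shAPT1, 372.4 to 389.5 in APT1wt and 592.2 to 651.2 in control. MAGEC1 was at 1.85, 2.29 and 2.75 TPM in shAPT1, against 0.269, 0.113 and 0.0553 TPM in APT1wt (4.05 ± 0.33, or 4.75 without APT1wt replicate 1). PAGE5 was at 5.09 to 7.90 TPM in shAPT1, 0.426 to 0.471 in APT1wt and 10.6 to 15.6 in control (3.67 ± 0.46). MAGEC2 had 70 reads in shAPT1 and 4 in APT1wt, again with control highest at 2.39 to 3.26 TPM (4.01 ± 0.49). SPANXA1 had 48 reads against 2 (ratio 24.7, interval 6.49 to 210), and shares reads with near-identical copies. These 4 genes lie on chromosome X, and after removal of the neighbours' median 4 list members were higher and 2 lower. With at least 20 reads required in 3 libraries, or with only the 6 libraries compared, 6 were higher and none lower.

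Differences were uneven along the genome. On chromosome 13, 148 of 271 tested genes were lower in shAPT1 and 10 higher (58.3% differed, beside 25.1% overall), with a median of -0.34. On X 200 of 484 were higher and 10 lower (median 0.28), on chromosome 4 175 of 531 were higher and 24 lower (median 0.19), and on chromosome 7 163 of 756 were higher and 37 lower. Within chromosome 4, 99 of 199 genes between 105708778 and 189963204 were higher and 2 lower (GRCh38), and within chromosome 7, 55 of 126 between 12330885 and 44848083 were higher and 3 lower. Chromosomes 21 and 22 leaned lower, with 44 of 173 and 82 of 369 genes lower.

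When the median difference of the 50 tested genes to either side was removed, 3347 genes differed, of which 2624 were among the 3829. Beside the genes named above, the mesenchymal marker VIM (0.20 ± 0.06) and the cytoskeletal linker gene MSN on X (0.29 ± 0.06) lost their call. VIM was also lost without any 1 of the APT1wt libraries or without shAPT1 replicate 2. The part of chromosomal position in other differences was not tested further.

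**Figure D5:**
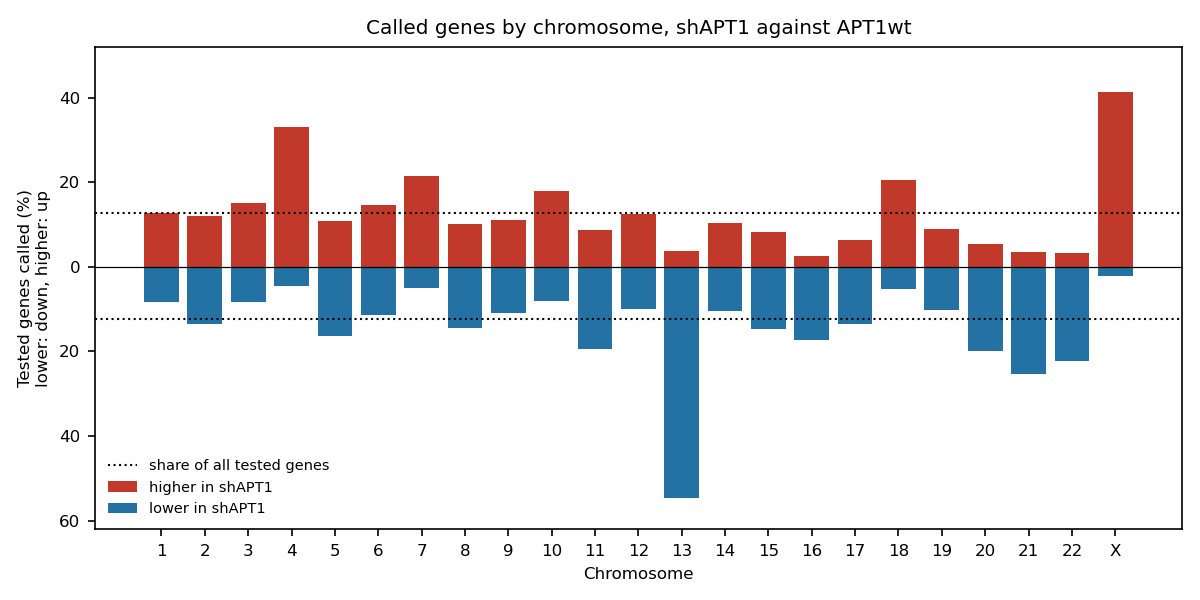
Percent of tested genes that were higher (up) or lower (down) in shAPT1 than in APT1wt on each chromosome, with the shares over all tested genes as dotted lines (12.7% and 12.4%). Chromosome 13 stands out below the axis (54.6% lower), and chromosomes X (41.3%) and 4 (33.0%) above it.

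Markers of the line and of other cell types were measured in the same libraries. The receptor gene PGR was under 0.1 TPM on average in each group. The estrogen receptor gene ESR1 was listed at 0 in all shAPT1 libraries, and stood at 0.019 to 0.036 TPM in control and 0.037 to 0.219 in APT1wt. Other members of that list were present: over the 9 libraries ERBB2 was at 27.5 to 37.3 TPM and GATA3 at 6.7 to 11.2. CDH1 was at 0.383 to 2.761 TPM and FOXA1 at 0.03 to 0.235. In the same libraries the summed level of 11 line markers, carried by VIM and CD44, was 3690 to 3930 TPM in shAPT1 and 3270 to 3490 in APT1wt. Of 6 tested leukocyte markers only LCP1, an actin-bundling protein gene, passed (-0.63 ± 0.08). The leukocyte list summed to 370 to 391 TPM in shAPT1, 397 to 436 in APT1wt and 634 to 750 in control. That sum was carried mostly by CD74 (184 to 463 TPM over the 9 libraries), HLA-DRA (39.8 to 169 TPM) and CD68. Of the 18 listed genes, 5 in shAPT1, 6 in APT1wt and 7 in control were under 0.1 TPM in each library of the group. The T cell gene CD3E, the B cell gene MS4A1 and TYROBP were so in every group, while the macrophage gene CD68 was at 67.4 to 131 TPM over the 9 libraries, CD8A at 0.510 to 1.14 and CD14 at 0.308 to 0.992. Of 4 tested fibroblast markers COL1A2 was higher and FBLN1 lower (-1.24 ± 0.15). In the same list COL1A1 was at 4.47 to 9.78 TPM and PDGFRB at 2.20 to 8.67 TPM over the 9 libraries. FAP, POSTN and PDPN were under 0.1 TPM in shAPT1, while FAP was at 0.567 TPM in APT1wt replicate 3. Of 6 endothelial markers TIE1 (1.32 ± 0.24) was 1 of 2 that were higher, and ROBO4 (-1.09 ± 0.11), ESAM (-0.79 ± 0.08) and EGFL7 (-0.74 ± 0.12) were lower. TIE1 did not pass with the length offset (0.64, adjusted p = 0.29). Of the other endothelial genes, CDH5, VWF and ERG were under 0.1 TPM on average in all groups, while KDR was at 0.756 to 1.85 TPM and PECAM1 at 0.161 to 1.15 TPM over the 9 libraries.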

How the data were processed

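Total RNA of 9 MDA-MB-231 samples, 3 per group, was sequenced by the authors. Per the submitters' processing notes, FastQC, Salmon, DESeq2 and build GRCh38.p10 were used; versions are not given in the sources used here. The deposited Salmon files give estimated counts and TPM per transcript, and a deposited gene table gives a signal scaled between libraries, how is not stated.

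Estimated counts were summed per gene and rounded. All 9 libraries entered edgeR's quasi-likelihood fit (edgeR 4.0.16, R 4.3.3) with filterByExpr, TMM and Benjamini-Hochberg adjustment (threshold 0.05). With 3 libraries a side, the smallest p of an exact permutation test is 0.1. TPM summed per gene gave levels. Placement and overlap of libraries used log2 CPM with a prior count of 2. Positions came from GENCODE 29 (15174 genes matched), promoters from RefSeq GRCh38.p14. The main edgeR fit was tested on simulated counts with the same spread for every gene and no library set apart, unlike these data. The alternative fits were not tested so.

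Libraries, gene lists and the naming rule were chosen with earlier results of these data known. Named genes were LYPLA1, LYPLA2, NUMB, NOTCH1, CTNNB1, CDC42, CXCR4, IL6 and CXCL8; the 12 largest differences each way (protein-coding, mean TPM of at least 1 in either line, no overlap); up to 4 per list; and the 6 largest per placement by control. Some genes that this rule names are not reported here. The promoter search, the promoters shown and which markers to name at or near 0 were decided after values were seen. Alternatives were RLE, library totals, DESeq2 1.42.0, limma-voom (limma 3.58.1), no filter, at least 20 reads in 3 libraries, a transcript length offset, the deposited table, only the 6 libraries compared, a replicate block, removal of the median of 50 neighbours on each side, a test against 1.5-fold, and leaving out each library.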

Additional observations from a re-analysis of the deposited data

How the results depend on the processing

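Beside 3829 genes that differed (1941 higher, 1888 lower, 2179 with control between), the deposited scaled table gave 2334 (1171 higher, 1163 lower, 1424 between) and the transcript length offset 2373 (1201 higher, 1172 lower, 1441 between). The test against 1.5-fold gave 357 (234 higher, 123 lower). With all 3 control libraries required, 514 lay between. Leaving out each library in turn gave 2573 to 4104 differing, 1317 to 2057 higher, 1256 to 2047 lower, 1521 to 2359 between and 6035 to 8148 without overlap, and LYPLA1 at -1.91 to -1.86. The fewest were lower without APT1wt replicate 2. The cause was not tested. DESeq2 gave 3440, limma-voom 3869, RLE 3834, no filter 4007, the stricter filter 3766 and only the 6 libraries 3182. Without a filter edgeR's prior degrees of freedom were infinite, beside 8.32, so a gene's own spread carried no weight in that fit.

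The replicate block gave 3872 genes, 3633 of them among the 3829. Under it 12 genes of the unfolded protein and ATF4 responses were higher, beside 7, and FOS had an adjusted p of 0.067. Deviations of same-numbered libraries correlated at 0.093, 0.042 and 0.009, and those of differently numbered libraries at -0.092 to 0.071. Replicates 1 and 2 of shAPT1 correlated best with the same-numbered APT1wt library, and shAPT1 replicate 3 with APT1wt replicate 2 (0.071). All these values were small and the labels do not say what a number shares, so the numbers were not taken as a pairing. Of 160 named genes other than LYPLA1, 127 kept their side of the threshold under each alternative that gave them a value (the test against 1.5-fold left out), 29 lost a call under at least 1, and no value reversed.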
